A study of Homo sapiens with 12 samples.

Results

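This account follows HK-2 cells that stayed in the compound the labels call Aa from 24 h to 48 h. The members are the 6 arrays of Aa-treated cells among the 12 of the series. They were chosen by their labels, 3 arrays at each time, and paired by biological replicate number. HK-2 is an immortalised human kidney line of proximal tubule origin, and every group was the same line in the same medium with EGF, hydrocortisone, insulin, transferrin and selenite. Aa was given at the dose labelled high. The other 6 arrays are vehicle cells, 3 at 24 h and 3 at 48 h, and serve as the measure of time in culture without Aa. What Aa is, and the dose in figures, cannot be read from the labels, which also do not say what separates one biological replicate from another, so p-values measure the spread between these samples.

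The proximal tubule reabsorbs most of what the kidney filters and is a common site of drug and toxin injury. Cells under lasting stress can start an immediate early response, in which transcription factors such as FOS and EGR1 are made from short, quickly induced genes, and injured tubules are known to switch on repair factors such as SOX9. They can also leave the cell cycle, whose replication and division genes are made in separate waves, and lose the transporters that mark the differentiated tubule.

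Values are log2 expression, so a difference of 1 is a doubling. Over all probe sets the arrays of 1 Aa group correlated at 0.994 to 0.996, and Aa arrays of different times at 0.984 to 0.992. The second principal component held 7.96% of the variance and placed the Aa arrays at -35.6 to -25.7 at 24 h and at 18.1 to 30.9 at 48 h, with vehicle arrays from -3.2 to 9.1. ACTB and GAPDH have control probe sets at both ends, and the excess of the 3' over the 5' end, which grows as RNA degrades, was 0.371, 0.547 and 0.264 at 24 h and 0.515, 0.68 and 0.431 at 48 h, higher at 48 h in each pair. The paired differences in Aa cells were 0.143, 0.133 and 0.167, a mean of 0.148 ± 0.0173 (SD, n = 3 pairs), and those in vehicle cells were -0.0136, 0.0634 and -0.011. An exact two-sided paired permutation test gave p = 0.25 in Aa cells, the smallest that 3 pairs allow, and an exact test without the pairing gave 0.3. Its part in the results below was not tested. The spiked hybridisation controls stood 0.307 to 0.592 above their mean on the Aa arrays at 48 h and between -0.107 and -0.0101 of it at 24 h. Scaled to these controls, the median change of all genes in Aa cells moved from -0.07 to -0.55 and in vehicle cells from -0.01 to -0.32. Directions below are those of the deposited scale, and a family whose median or count turned under that scaling is named as it is described. Of the markers of other cell types, 0 of 13 for leukocytes were over log2 4 on any array, the endothelial list's summed linear level was 196 to 266 at 24 h and 199 to 236 at 48 h, and 12 of 13 epithelial markers were over log2 4 on all Aa arrays, PAX2 being the other. Of 12 fibroblast and pericyte markers, 6 were over log2 4 on all Aa arrays, among them DCN at means of 11.81 and 11.70 and RGS5 at 11.54 and 11.84, and their summed linear level was 5840 to 9960 at 24 h and 7070 to 9650 at 48 h. PDGFRA, PDGFRB, COL1A2 and COL3A1 of that list had means under log2 4. The distal nephron and podocyte list, with 4 of 20 over log2 4 on all arrays at 24 h and 5 at 48 h, had a summed level of 808 to 1190 and then 1370 to 1390.

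Exposed cells moved far more between the times than vehicle cells did. Of 11184 genes tested in Aa cells, 1797 rose (16.1%) and 3190 fell (28.5%) at a Benjamini-Hochberg adjusted p under 0.05 from limma, the test behind every adjusted p here. These made up 44.6% of the genes. In vehicle cells 744 rose (6.65%) and 925 fell (8.27%). With a log2 size of at least 1 as well, 291 rose (2.6%) and 523 fell (4.68%) in Aa cells, 7.28% in all, against 72 (0.644%) and 43 (0.384%) in vehicle cells, 1.03% in all. The 2 Aa groups did not overlap for 1760 genes higher at 48 h (15.7%) and 3008 lower (26.9%). The split between rises and falls depends on the scale: 2405 rose and 2560 fell with equal array medians, 2342 and 2601 after quantile normalisation, and 368 and 7528 when scaled to the spiked controls. Without the replicate block, 1079 rose and 2182 fell in Aa cells, and in vehicle cells 31 and 40. The change in Aa cells differed from that in vehicle cells for 4314 genes (38.6%), with 1726 more positive in Aa cells (15.4%) and 2588 more negative (23.1%). With a size of at least 1 these were 431 (3.85%) and 798 (7.14%), 1229 together (11%). Across genes, the 2 changes, which share no array, had r = -0.0994, as a description only. Among the 523 genes that fell by at least 1, the third pair moved by a median of -1.48, the second by -1.51 and the first by -0.98, and the array of replicate 1 at 48 h was the highest of its group in 368. Without that array 1595 genes rose and 3008 fell in Aa cells.

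Most genes of the immediate early response rose. Of 22 tested members, 14 rose (63.6%) and 2 fell (9.09%), against 16.1% and 28.5% over all genes. Their median was 0.71 against -0.07, while in vehicle cells 1 rose and 1 fell. FOSB, 1 of the 22, was over log2 4 on Aa arrays at 48 h alone and so had to differ. With genes chosen on vehicle arrays alone, a setting chosen after the values were seen, 13 of 21 rose and 2 fell. FOS, an AP-1 transcription factor, was at 5.20, 5.09 and 4.51 at 24 h and at 8.91, 8.30 and 9.19 at 48 h. The groups did not overlap, and its change was 3.86 ± 0.239 (SE, adjusted p = 3.11e-05), whereas vehicle means were 4.71 and 4.60. FOSB, its paralog, was under log2 4 on all 3 arrays at 24 h (3.12, 2.25 and 2.74) and reached 7.57, 7.11 and 7.72, at least 11.1-fold higher. NR4A1, an orphan nuclear receptor, went from 5.77, 5.49 and 5.47 to 7.89, 7.41 and 8.33 (2.3 ± 0.195, adjusted p = 9.74e-05), and NR4A2, its relative, rose by 2.08 ± 0.339 (adjusted p = 0.00153). ATF3, a stress-induced factor, was already at 10.48, 10.30 and 10.14 at 24 h, against 4.71, 4.76 and 5.55 in vehicle cells, and stood at 12.09, 11.98 and 12.60 at 48 h. The 2 that fell were JUND and KLF6. Under the spiked controls 9 of the 22 rose and 7 fell, and the median stayed above 0 at 0.24.

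**Figure D1:**
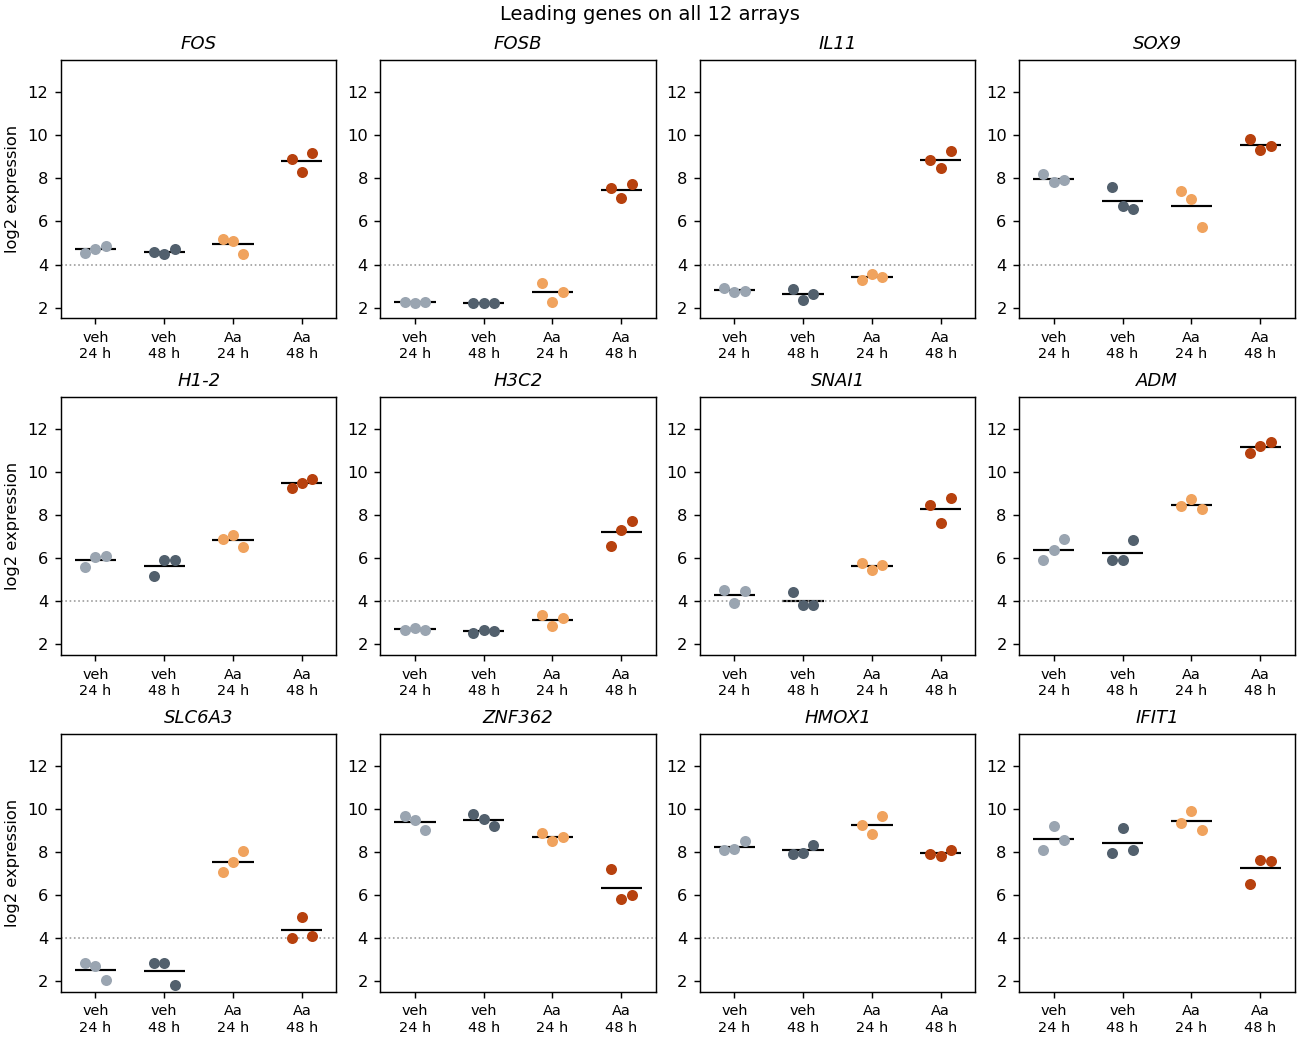
Log2 expression of 12 genes on every array (points, replicates 1 to 3 from left to right), with group means as black lines, for vehicle and Aa cells at 24 h and 48 h. The dotted line is log2 4, the level under which values are background; IL11, FOSB and H3C2 lie under it at 24 h in Aa cells and above it at 48 h.

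Other genes that stood apart at 48 h encode secreted factors and regulators. IL11, a cytokine of the IL6 family, was at 3.28, 3.54 and 3.43 at 24 h and at 8.87, 8.48 and 9.26 at 48 h, at least 29.2-fold higher, while vehicle means were 2.80 and 2.63. RASD1, a small Ras-like GTPase, went from 6.55, 6.03 and 6.13 to 9.77, 8.60 and 10.03 (3.23 ± 0.276, adjusted p = 9.84e-05). ADM, which encodes the vasodilator adrenomedullin, went from 8.42, 8.74 and 8.28 to 10.91, 11.20 and 11.39. Its change of 2.69 ± 0.228 (adjusted p = 9.74e-05) was larger than the spread, and vehicle means were 6.39 and 6.22. ID2, a repressor of bHLH factors, rose from 11.04, 10.90 and 10.52 to 13.16, 12.91 and 13.40. LOC401261, under log2 4 on 2 arrays at 24 h, was at least 17-fold higher, and the antisense transcript ZNF143-AS1, under it on all 3, at least 11.5-fold higher; overlap of the latter with its sense gene was not resolved by these probes.

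Several histone genes rose in Aa cells. Of 63 listed replication-dependent histone genes, which supply chromatin in S phase, 40 were on the array and 15 passed the filter. Of those, 13 rose (86.7%) and 0 fell (median 1.95), where 16.1% rose and 28.5% fell over all genes. In vehicle cells 3 rose (20%) and 0 fell, against 6.65% and 8.27% over all genes. Under the spiked controls 10 rose and 0 fell (median 1.47), where 368 of all 11184 genes rose and 7528 fell. Of the 15, 3 were over log2 4 on Aa arrays at 48 h alone and so had to differ, and the counts over the 15 are a description. When only vehicle arrays decided which genes were tested, a setting chosen after the values were seen, 10 members passed. Of these 8 rose and 0 fell (median 1.31). Over all 10806 genes passing, 1673 rose and 3159 fell (median -0.08). H3C2 was at 3.38, 2.86 and 3.21 at 24 h and at 6.56, 7.31 and 7.75 at 48 h, at least 9.24-fold higher. H1-2, a linker histone, went from 6.91, 7.08 and 6.54 to 9.27, 9.48 and 9.68 (2.63 ± 0.186, adjusted p = 5.77e-05). H2BC4 went from 5.23, 5.65 and 3.30 to 7.63, 8.25 and 7.74 and H2AC17 from 3.61, 3.97 and 3.35 to 6.92, 6.35 and 6.54. The 24 h and 48 h arrays did not overlap for any of these 4 genes. H3C2 and H2AC17 were over log2 4 on Aa arrays at 48 h alone, so for them the filter fixed this. H1-2 was among the 8 largest rises, for which no overlap was a condition. Vehicle means of the 4 genes stayed between 2.61 and 5.91. Messages of these genes normally end in a stem-loop and not in a poly(A) tail, and copies of the family are alike in sequence, so which copy a probe set reads is uncertain.

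Replication-dependent histone promoters are known for a TATA box, CCAAT boxes and, in H2B genes, an octamer. Those of the 4 genes named above are shown, as the 200 bases before the start (GRCh38.p14, RefSeq), with matches on either strand to the CCAAT box (letters CCAAT), the core of the octamer (letters ATGCAAA) and the TATA box (letters TATAAA) in capitals; a match is a description of letters and not a site.
H2BC4 (chr6:26123927-26124126, minus strand): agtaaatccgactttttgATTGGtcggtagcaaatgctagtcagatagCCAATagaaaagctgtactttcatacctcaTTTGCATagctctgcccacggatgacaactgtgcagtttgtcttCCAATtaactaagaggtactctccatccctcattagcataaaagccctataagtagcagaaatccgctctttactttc
H2AC17 (chr6:27893186-27893385, minus strand): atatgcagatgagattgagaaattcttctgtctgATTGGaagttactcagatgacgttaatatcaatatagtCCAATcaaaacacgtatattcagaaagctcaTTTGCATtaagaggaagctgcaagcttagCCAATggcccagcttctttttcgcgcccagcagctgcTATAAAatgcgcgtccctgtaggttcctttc
H3C2 (chr6:26032100-26032299, minus strand): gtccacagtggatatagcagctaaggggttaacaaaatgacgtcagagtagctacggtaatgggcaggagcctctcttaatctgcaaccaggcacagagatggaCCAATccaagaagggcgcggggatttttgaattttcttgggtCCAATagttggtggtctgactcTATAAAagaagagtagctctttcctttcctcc
H1-2 (chr6:26056471-26056670, minus strand): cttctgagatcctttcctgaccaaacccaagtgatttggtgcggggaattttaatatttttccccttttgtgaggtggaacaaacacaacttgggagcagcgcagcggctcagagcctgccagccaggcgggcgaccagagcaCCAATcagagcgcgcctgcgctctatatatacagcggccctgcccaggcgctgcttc
In the 300-base window around the start, CCAAT was found in 93.3% of the 15 list promoters, ATGCAAA in 53.3% and TATAAA in 73.3%, against 37.4%, 2.61% and 5.33% of the 9245 tested genes with a promoter and 35.7%, 4.51% and 12% of all 27305 promoters. H1-2 has only CCAAT of the 3 motifs in the window, and H3C2 has no ATGCAAA there.

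Genes of mitosis had a median change near 0 in Aa cells and mostly fell in vehicle cells. Of 50 tested, 9 rose (18%) and 8 fell (16%) in Aa cells (median -0.01), against 16.1% and 28.5% over all genes. The rises were thus near the share over all genes. In vehicle cells 0 rose and 41 fell (82%, against 8.27% over all genes), with a median of -0.53. The difference was called positive for 30 (60%, against 15.4%) and negative for 0. Under the spiked controls 0 rose and 38 fell in Aa cells and the difference was called positive for 15 and negative for 0; without the replicate block the counts were 3 and 5, with 8 falling in vehicle cells and 20 positive differences. The 9 rises came to 4 without replicate 3 at 24 h and to 5 without replicate 2 at 48 h, and the 8 falls to 5 without replicate 1 or 2 at 24 h or replicate 3 at 48 h. MKI67, a marker of cycling cells, was at 11.89, 11.68 and 11.82 at 24 h and at 12.30, 12.44 and 12.49 at 48 h, and in vehicle cells its mean went from 11.97 to 11.25. The difference was 1.33 (adjusted p = 0.000566), but only 2 of its 4 probe sets ran the same way, and the median over them was -0.11 in Aa cells. KIF15, a spindle motor, fell from 8.37, 8.46 and 8.25 to 7.66, 7.55 and 7.62, and KIF11, another, from 11.09, 10.96 and 11.15 to 10.41, 10.40 and 10.38. For these 2 the difference from vehicle cells was not called (adjusted p = 0.478 and 0.156). Among 50 genes of DNA replication, falls outnumbered rises in both treatments, with 3 rises and 25 falls in Aa cells (median -0.25) and 0 and 22 in vehicle cells (median -0.30), where 3 fell without the replicate block. These falls were 50% and 44% of the list, against 28.5% and 8.27% over all genes. GINS4, a part of the replicative helicase, went the other way, from 6.62, 6.94 and 6.99 to 8.20, 8.33 and 8.38, while GINS1, of the same complex, fell by 1.09 (SE 0.0878, adjusted p = 8.32e-05).

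Mitosis genes are known to share 2 promoter elements that time them to late cell cycle, a CCAAT box and a cell-cycle homology region. The promoters of MKI67, whose value was higher at 48 h, and of KIF11 and KIF15, which fell, are shown as the 200 bases before the start, with CCAAT and TTTGAA on either strand in capitals; in MKI67 the 2 motifs run into each other at 1 place.
MKI67 (chr10:128126424-128126623, minus strand): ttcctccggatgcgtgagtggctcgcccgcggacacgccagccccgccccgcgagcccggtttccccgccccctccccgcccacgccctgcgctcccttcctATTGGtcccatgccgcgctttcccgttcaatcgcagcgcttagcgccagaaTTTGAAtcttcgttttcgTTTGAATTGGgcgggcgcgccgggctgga
KIF11 (chr10:92592930-92593129, plus strand): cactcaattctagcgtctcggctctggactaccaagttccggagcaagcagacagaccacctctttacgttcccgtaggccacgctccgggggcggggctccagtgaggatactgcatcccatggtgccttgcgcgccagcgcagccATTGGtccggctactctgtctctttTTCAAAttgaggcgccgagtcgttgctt
KIF15 (chr3:44761594-44761793, plus strand): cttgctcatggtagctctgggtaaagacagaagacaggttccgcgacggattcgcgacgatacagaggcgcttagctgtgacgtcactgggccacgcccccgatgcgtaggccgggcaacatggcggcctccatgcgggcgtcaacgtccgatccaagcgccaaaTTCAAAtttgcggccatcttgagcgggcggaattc
TTTGAA was found in 66.7% of the 42 mitosis promoters in the table, 2.38% of those of DNA replication genes, 9.5% of tested genes and 15.4% of all promoters. CCAAT was found in 78.6%, 54.8%, 37.4% and 35.7%. KIF15 has no CCAAT in the window.

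**Figure D2:**
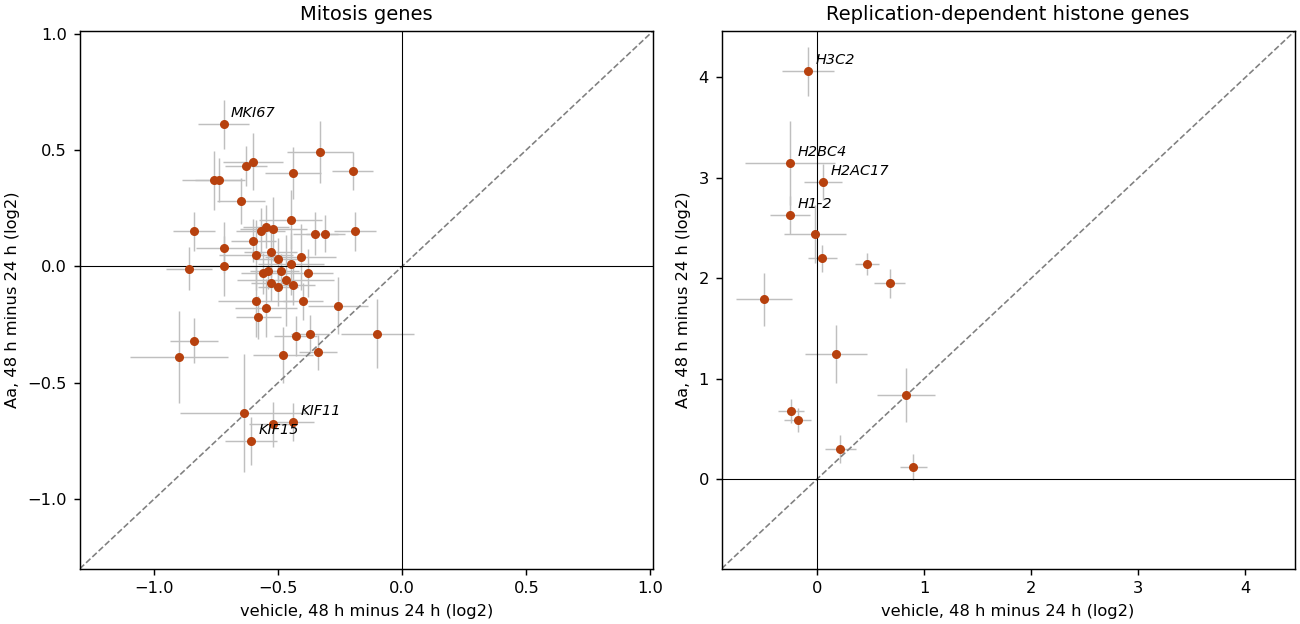
Change from 24 h to 48 h (log2, 48 h minus 24 h) in Aa cells against that in vehicle cells, for each of 50 mitosis and 15 histone genes, with standard errors as grey bars and equal change as a dashed line. Mitosis genes lie mostly above the dashed line and left of 0; MKI67 had 0.61 and -0.72, and 4 histone genes named here lie above 2.5 in Aa cells.

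Among genes that make ribosomes, more rose than fell on the deposited scale, and more fell than rose when scaled to the spiked controls. Of 36, 16 rose (44.4%) and 5 fell (13.9%), with a median of 0.23, against 16.1% and 28.5% over all genes. Under that scaling 2 rose and 15 fell (median -0.24), where 368 of all 11184 genes rose and 7528 fell (median -0.55). Without the replicate block 7 rose and 2 fell. POLR1C, a subunit of RNA polymerases I and III, went from 9.04, 9.25 and 9.16 to 10.01, 10.28 and 10.66 (1.17 ± 0.112, adjusted p = 0.000167), and the difference from vehicle cells was 1.24. POLR1D, another subunit, fell, from 10.90, 10.70 and 10.78 to 9.94, 9.73 and 10.00, but the median over its probe sets was -0.10. RNA45SN5, 1 copy of the multi-copy ribosomal RNA precursor, went from 9.55, 9.11 and 8.77 to 12.22, 11.78 and 12.32 (2.96 ± 0.22, adjusted p = 6.17e-05), with vehicle means of 6.81 and 7.05. Which copies the probes read is uncertain. Of 51 ribosomal protein genes 3 rose (5.88%) and 0 fell (median 0.04), both shares below those over all genes. Scaled to the spiked controls 0 rose and 46 fell (median -0.44).

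Genes of growth factor and cytokine signalling were counted next. Of 16 ERK phosphatase and Sprouty genes, 6 rose (37.5%) and 1 fell (6.25%), against 16.1% and 28.5% over all genes. Their median was 0.23. Under the spiked controls 4 rose and 4 fell (median -0.24), where 368 of all 11184 genes rose and 7528 fell (median -0.55). DUSP10, a MAP kinase phosphatase, went from 7.41, 7.33 and 7.67 to 8.75, 8.80 and 8.93 (1.36 ± 0.266, adjusted p = 0.00362), and the difference from vehicle cells was 2.11. HBEGF, an EGF receptor ligand, was at 10.41, 10.21 and 10.33 and then at 11.69, 11.73 and 11.98, and ERBB2, a receptor of that family, fell from 9.24, 8.52 and 8.72 to 8.23, 7.91 and 7.75. Of 20 NF-kB and cytokine genes, 8 rose (40%) and 6 fell (30%), with a median of 0.21, and -0.26 under the spiked controls. Over all genes the shares were 16.1% and 28.5%. The counts were 4 and 3 without the replicate block, and the 8 came to 5 without replicate 3 at 24 h or replicate 2 at 48 h. IL11, 1 of the 20, was over log2 4 on Aa arrays at 48 h alone and so had to differ. With genes chosen on vehicle arrays alone, 7 of 19 rose and 6 fell (median 0.12). CXCL8, a neutrophil chemokine, went from 12.11, 12.22 and 11.51 to 13.13, 13.24 and 13.20 (1.24 ± 0.179, adjusted p = 0.000873) and CXCL2 rose by 1.52 (SE 0.202). CCL2, a monocyte chemokine, fell in Aa cells (-1.22) and rose in vehicle cells (0.99). IL6 had a change of 1.44 ± 0.481 (adjusted p = 0.0372), which lost its call without replicate 2 or 3 of Aa cells at 24 h, without any 1 Aa array at 48 h and without replicate 3 of vehicle cells at 24 h.

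Repair and matrix genes moved in both directions. Of 22 kidney injury genes, 8 rose (36.4%) and 3 fell (13.6%), against 16.1% and 28.5% over all genes. Their median was 0.02, and 3 rose and 12 fell under the spiked controls. SOX9, a repair factor, was at 7.41, 7.06 and 5.73 and then at 9.84, 9.30 and 9.52 (2.82 ± 0.284, adjusted p = 0.000201), while vehicle means fell from 7.99 to 6.95. HAVCR1, the injury marker KIM-1, was at 10.41, 10.66 and 10.73 and then 10.53, 10.57 and 10.66 (-0.01 ± 0.0697, adjusted p = 0.908). Of 34 matrix and TGF-beta target genes, 9 rose (26.5%) and 10 fell (29.4%) in Aa cells, the falls near the share over all genes. In vehicle cells 2 rose and 14 fell (41.2%, against 8.27% over all genes). The difference was positive for 16 (47.1%, against 15.4%) and negative for 5 (14.7%, against 23.1%). Of the 34, SNAI2 was over log2 4 on Aa arrays at 48 h alone and so had to differ. With genes chosen on vehicle arrays alone, 8 of 33 rose and 10 fell. SNAI2, a repressor of epithelial genes, was at 2.73, 2.66 and 2.79 and then at 6.10, 5.67 and 6.31, at least 4.07-fold higher. SNAI1, its paralog, rose from 5.77, 5.44 and 5.70 to 8.45, 7.64 and 8.82 (2.67 ± 0.195, adjusted p = 5.96e-05). CCN2, a growth factor made under TGF-beta, went from 9.84, 9.39 and 9.84 to 11.26, 11.04 and 11.85, and LAMB3, a laminin chain, rose by 1.14 (SE 0.134). Epithelial markers fell in part: of 12, 1 rose (8.33%) and 5 fell (41.7%), with a median of -0.22, against 16.1% and 28.5% over all genes. Their summed linear level was 43700 to 45900 at 24 h and 35900 to 43600 at 48 h. In vehicle cells this sum was also lower at 48 h, with 72600 to 73900 at 24 h and 65300 to 71600 at 48 h. Fewer cells and less RNA per cell cannot be told apart in bulk samples. Of the 6 tested fibroblast and pericyte markers, 2 rose and 0 fell (median 0.16, and -0.31 under the spiked controls), NOTCH3 from a mean of 7.39 to 8.40 and COL1A1 by 0.38, the latter turning under that scaling and with the median over its probe sets. Their part in the epithelial and matrix counts was not tested. CDH6, a tubular cadherin, fell from 11.31, 11.48 and 11.30 to 10.61, 9.55 and 9.06, and OCLN, a tight junction protein, by 0.52 (SE 0.0806), while KRT7 rose by 0.77 (SE 0.182). Of 34 cell junction genes 6 rose (17.6%) and 12 fell (35.3%), near the 16.1% and 28.5% over all genes, and the 6 came to 1 without replicate 3 at 24 h and to 3 without replicate 3 at 48 h.

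Hypoxia, p53 and survival genes had calls in both directions, to be read against the 16.1% that rose and 28.5% that fell over all genes. Of 33 hypoxia and glycolysis genes, 9 rose and 6 fell (median 0.17, and -0.30 under the spiked controls), led by ADM and by ANKRD37, which went from 7.17, 7.52 and 7.06 to 8.86, 9.08 and 9.24. The 6 falls came to 3 without replicate 1 or 2 at 24 h and to 2 without replicate 2 at 48 h. Of 30 p53 targets, 8 rose (26.7%) and 10 fell (33.3%). GADD45A, a growth arrest gene, went from 11.19, 11.14 and 11.22 to 12.36, 12.40 and 13.09 (1.43 ± 0.144, adjusted p = 0.000201) and SERTAD1 from 8.96, 8.43 and 8.99 to 10.49, 10.27 and 11.28. MDM2, the ubiquitin ligase that acts on p53, fell from 9.13, 9.14 and 8.72 to 8.51, 8.15 and 8.13 (adjusted p = 0.00112), and CDKN1A, a cell cycle inhibitor, had a change of 0.17 (adjusted p = 0.533) at means near 11, well above the vehicle means. Of 28 apoptosis genes 3 rose (10.7%) and 9 fell (32.1%), near the shares over all genes. PMAIP1, which encodes the BH3 protein NOXA, rose from 11.81, 12.02 and 11.96 to 12.82, 13.02 and 13.13, and BCL2, which protects cells from apoptosis, went from 5.61, 5.71 and 5.22 to 5.05, 3.98 and 2.49, at least 2.24-fold lower, but only 1 of its 2 probe sets ran that way.

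Among genes that fell, the 8 with the largest falls on arrays over log2 4 were led by 2 genes below log2 4 in vehicle cells. SLC6A3, the dopamine transporter, was at 7.05, 7.53 and 8.06 at 24 h and at 4.02, 4.99 and 4.09 at 48 h (-3.18 ± 0.357, adjusted p = 0.000304), and in vehicle cells between 1.80 and 2.84. BHLHA15, a factor of secretory cells, went from 7.98, 6.16 and 7.77 to 4.73, 4.75 and 4.40, and vehicle means were 3.13 and 3.11. Both were above log2 4 in Aa cells and below it in vehicle cells at both times, and the 48 h arrays lay between the vehicle and 24 h arrays. The other 6 were bright in vehicle cells. COMMD1, a regulator of copper and NF-kB, went from 7.65, 7.81 and 8.65 to 6.48, 4.76 and 5.38, and ZNF362, a zinc finger protein, from 8.89, 8.52 and 8.68 to 7.22, 5.81 and 5.98 (-2.36 ± 0.225, adjusted p = 0.000162). BABAM2, CYS1, RAB27B and SLC34A2 fell by 2.43 to 2.48, and replicate 1 was the highest array at 48 h for BABAM2, CYS1, RAB27B, COMMD1, SLC34A2 and ZNF362. Among genes with an array under log2 4, PKIG was at least 7.46-fold lower, SLC40A1, which encodes the iron exporter ferroportin, at least 5.76-fold and CBLB, a ubiquitin ligase, at least 5.65-fold. LPP was at least 6.93-fold lower, and 5 of its 6 probe sets ran that way.

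In 3 lists of stress defence, as over all genes, more members fell than rose. The falls were 52% of NRF2 targets, 66.7% of metallothionein genes and 62.1% of interferon response genes, against 28.5% over all genes. Of 25 NRF2 targets, 3 rose and 13 fell (median -0.33), and the difference from vehicle cells was negative for 11 and positive for 2. HMOX1, which degrades heme, went from 9.27, 8.84 and 9.68 to 7.91, 7.82 and 8.10 (-1.32 ± 0.115, adjusted p = 0.000109), against vehicle means of 8.24 and 8.07. AKR1C3, a steroid and carbonyl reductase, went from 10.23, 10.69 and 9.69 to 8.93, 8.94 and 8.19. MAFG, a small partner of NRF2, rose by 0.95. All 6 called metallothionein list members fell, of 9 tested (median -0.85), and MT1X, a zinc buffer, went from 13.52, 13.22 and 13.51 to 12.69, 12.39 and 12.41. Those genes share sequence, so they are not independent. Of 29 interferon response genes, 5 rose and 18 fell (median -0.59), the 5 coming to 3 without replicate 3 at either time. IFIT1, an antiviral RNA binder, went from 9.34, 9.90 and 9.01 to 6.53, 7.61 and 7.58 (-2.18 ± 0.222, adjusted p = 0.000208), and IFI6 went the other way, from 6.57, 6.50 and 6.90 to 8.52, 8.01 and 8.49.

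Amino acid stress, clock and tubule genes had more rises than falls in vehicle cells on the deposited scale, but 2 and 2, 0 and 2, and 3 and 2 under the spiked controls, and without the replicate block 1, 0 and 1 rose. Of 28 ATF4 and amino acid stress genes, 6 rose (21.4%) and 8 fell (28.6%) in Aa cells, near the 16.1% and 28.5% over all genes. In vehicle cells 7 rose (25%) and 0 fell, against 6.65% and 8.27% over all genes. The difference was negative for 10 (35.7%, against 23.1%). SLC7A11, the cystine importer, went from 6.62, 7.41 and 6.85 to 5.35, 5.70 and 5.49, and rose in vehicle cells by 0.95 (adjusted p = 0.0266). Of 17 circadian clock genes, 1 rose (5.88%) and 6 fell (35.3%) in Aa cells (3 without replicate 2 at 48 h), the falls near the 28.5% over all genes. In vehicle cells 4 rose (23.5%). PER3, a clock repressor, went from 8.81, 9.15 and 8.83 to 8.11, 8.02 and 8.03, with a difference of -1.29 (adjusted p = 0.000539). Of 16 proximal tubule genes, 5 rose (31.2%) and 4 fell (25%) in Aa cells (1 and 9 under the spiked controls), with a median of -0.04. Some of the 16 passed the filter only with the help of Aa arrays. With genes chosen on vehicle arrays alone, a setting chosen after the values were seen, 3 of 13 rose and 4 fell (median -0.25). Of the 16, 7 rose (43.8%) and 0 fell in vehicle cells. The 5 rises came to 3 without replicate 3 at either time. The difference was negative for 8, or 2 without the replicate block and 5 without replicate 2 of Aa or vehicle cells at 48 h or replicate 1 of vehicle cells at 24 h. SLC4A4, a bicarbonate transporter, went from 10.33, 11.08 and 9.75 to 9.61, 9.63 and 8.58, against vehicle means of 11.40 and 12.33, a difference of -2.05 ± 0.174 (adjusted p = 0.000298). CYP27B1, which makes active vitamin D, went from 5.67, 6.09 and 5.50 to 7.37, 7.12 and 7.95. Its vehicle means were 2.51 and 2.37, so it passed the filter through Aa arrays alone.

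Of 26 endoplasmic reticulum chaperone genes 6 rose and 4 fell, and ATF6, a stress sensor, went from 8.02, 7.90 and 7.92 to 6.88, 6.23 and 6.19, while ERN1, the IRE1 sensor, rose by 1.41 (SE 0.167). Of 63 oxidative phosphorylation genes 10 rose and 5 fell, of 34 lysosome and autophagy genes 7 and 7, of 50 splicing factor genes 8 and 14, of 46 RNA polymerase II and elongation genes 8 and 12, of 30 proteasome genes 6 and 7, of 41 DNA repair genes 6 and 10, of 19 cholesterol synthesis genes 3 and 3, of 17 heat shock genes 5 and 2, of 17 aminoacyl-tRNA synthetases 4 and 3 and of 22 solute carriers 5 and 8, and under the spiked controls more members of each of these lists fell than rose. Over all genes the shares were 16.1% and 28.5%. ACTB fell by 0.37 (SE 0.0737, adjusted p = 0.00412), and GAPDH had a change of -0.09 (adjusted p = 0.343). TEK, CLDN5, EGFL7 and ESAM were the 4 endothelial markers tested, and 0 were called.

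**Figure D3:**
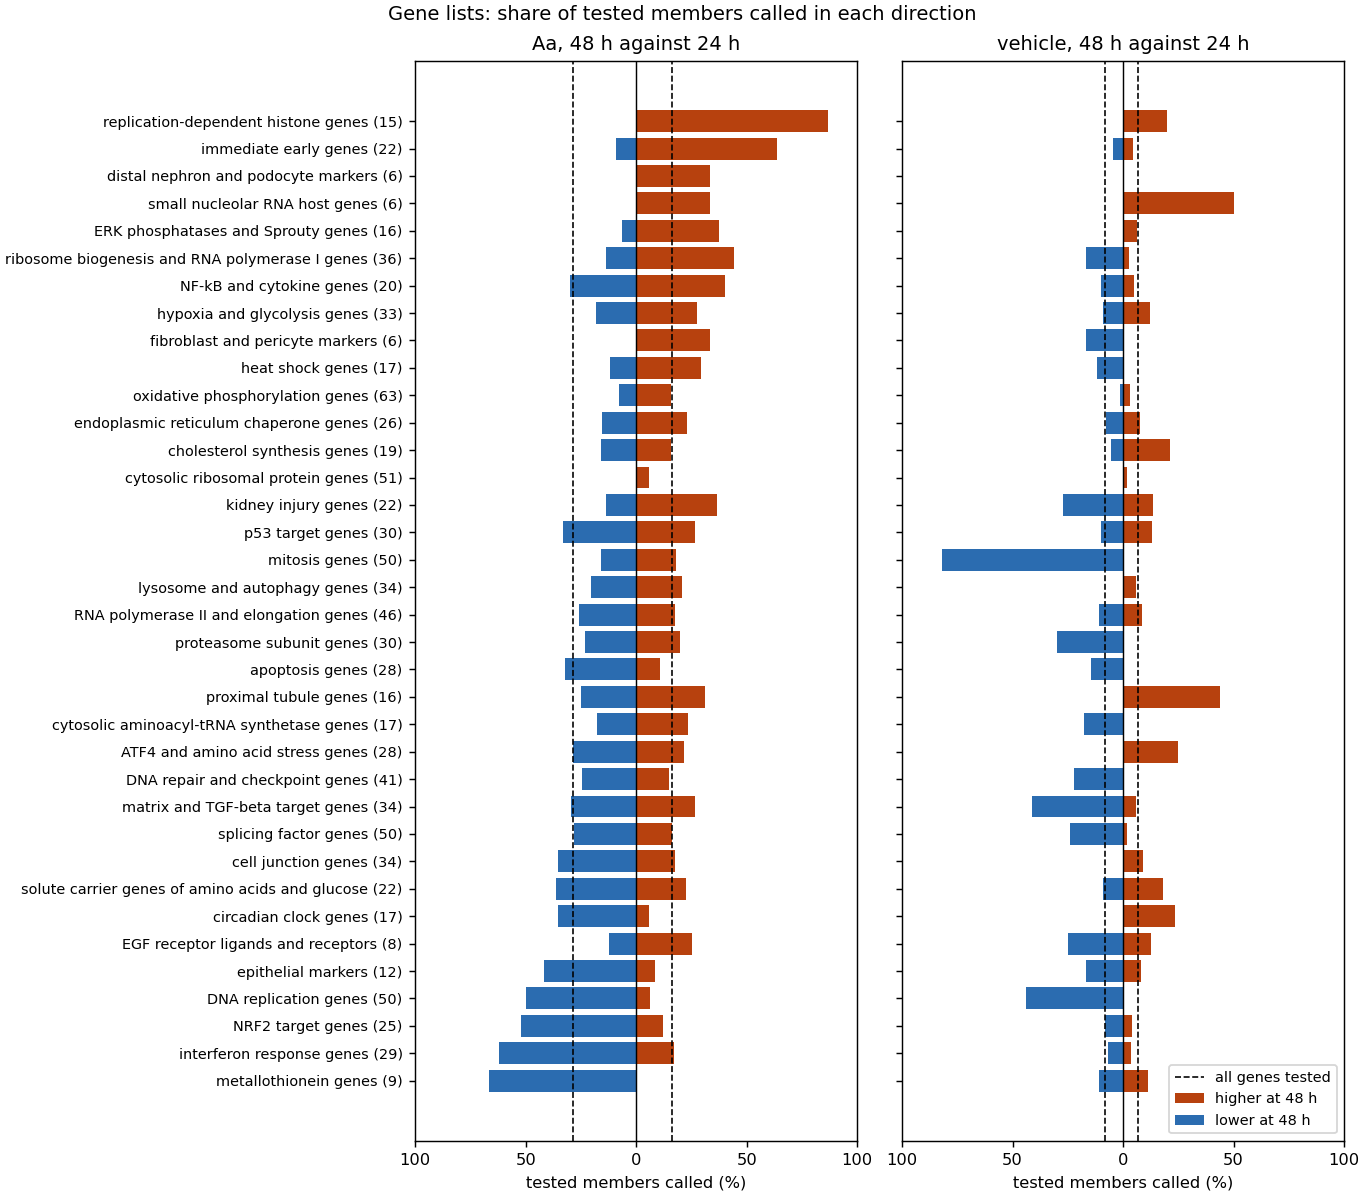
Share of tested members (number in brackets) called higher (right) or lower (left) at 48 h for each list with at least 6 tested members, ordered by median change in Aa cells, with the shares over all genes tested as dashed lines. Histone and immediate early genes lie far right in Aa cells, and mitosis genes far left in vehicle cells. On the scale of the spiked controls the ribosome biogenesis, ERK, NF-kB, hypoxia, small nucleolar RNA host, heat shock, oxidative phosphorylation, cholesterol, chaperone, ribosomal protein, distal nephron, fibroblast and kidney injury lists turned to negative medians, and with equal array medians lists between -0.08 and 0 moved to 0 or above.

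The time change of 469 genes was called in both treatments in opposite directions, 216 up in Aa and down in vehicle cells and 253 the reverse. Opposite calls in 1 fit make the difference pass its own test, so that all 469 passed it adds no support. The count of 469 rests on the calls in vehicle cells and was 10 without the replicate block, 186 under the spiked controls and 243 with each treatment fitted alone. Without single arrays it was 116 to 501, falling to 116 to 255 without any 1 vehicle array other than replicate 3 at 48 h and to 299 without replicate 2 of Aa cells at 24 h. SLN, which encodes sarcolipin, was at 8.01, 7.39 and 8.28 and then at 9.34, 9.06 and 10.16 in Aa cells, and at 8.58, 8.01 and 9.07 and then 5.02, 4.23 and 7.55 in vehicle cells. Its difference was 4.58 ± 0.616 (adjusted p = 0.00113), and its own rise in Aa cells lost its call without replicate 3 at 24 h or replicate 2 at 48 h. LINC00973 rose by 1.62 and fell by 1.96, and PLAT, tissue plasminogen activator, rose by 1.95 and fell by 1.48. On the negative side INHBE, an activin-type subunit, went from 6.16, 6.81 and 5.46 to 5.20, 5.72 and 4.24 in Aa cells and from 6.50, 6.97 and 5.65 to 8.57, 8.95 and 7.55 in vehicle cells. Its pairs fell by a like amount while the groups overlap, and the difference was -3.07 ± 0.111 (adjusted p = 9.74e-06). TMEM37 (3 of its 4 probe sets running that way in Aa cells), STEAP2, GPC6 and SIM1 had differences of -3.11, -2.92, -2.91 and -2.81; their vehicle changes were not called (adjusted p = 0.0732, 0.155, 0.0872 and 0.128).

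**Figure D4:**
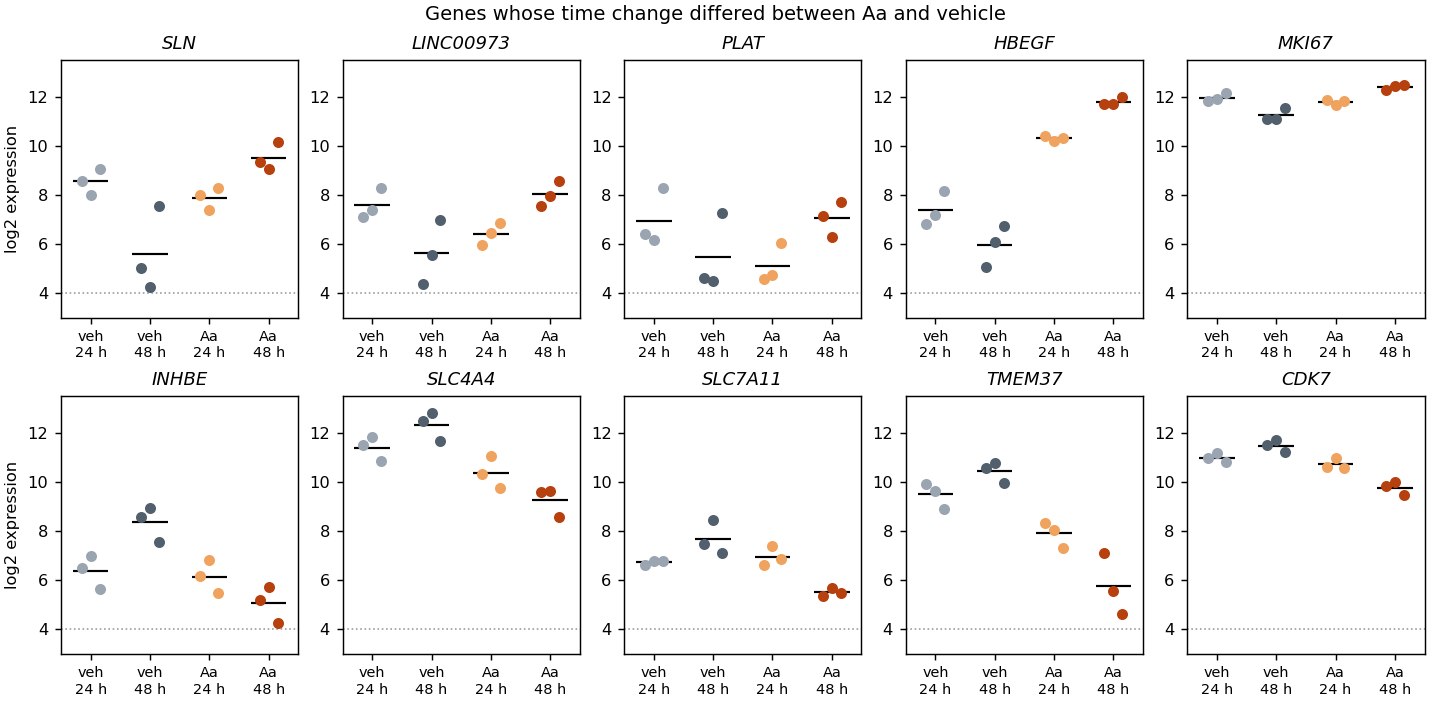
Log2 expression of 10 genes on every array (points, replicates 1 to 3 from left to right) with group means as black lines. SLN, LINC00973, PLAT, HBEGF and MKI67 went up in Aa and down in vehicle cells, and INHBE, SLC4A4, SLC7A11 and CDK7 the reverse; TMEM37 fell in Aa cells and its vehicle change was not called.

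Falls were more frequent among long genes. Of 2331 genes spanning under 10 kb, 25.9% rose and 18.1% fell (median 0.05). Of 1254 genes from 100 to 200 kb, 5.98% rose and 48.0% fell (median -0.33), and over 200 kb, 4.8% of 708 rose and 41.7% fell (median -0.32). In vehicle cells the falls went from 9.91% under 10 kb to 3.11% over 200 kb. Genes over 200 kb also lay lower at 24 h in Aa cells than in vehicle cells, with medians of 6.60 and 8.11. The correlation across genes between log10 span and the change was -0.287 in Aa cells and 0.141 in vehicle cells, as a description, and genes are not independent replicates. Under the spiked controls the falls were 55.9% under 10 kb, 83.7% from 100 to 200 kb and 70.6% over 200 kb. Of the 8 largest falls named, COMMD1 spans 248 kb, BABAM2 450 kb, RAB27B 178 kb and ZNF362 173 kb, and SLC6A3 spans 52.6 kb, CYS1 23.9 kb, SLC34A2 22.9 kb and BHLHA15 4.02 kb.

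**Figure D5:**
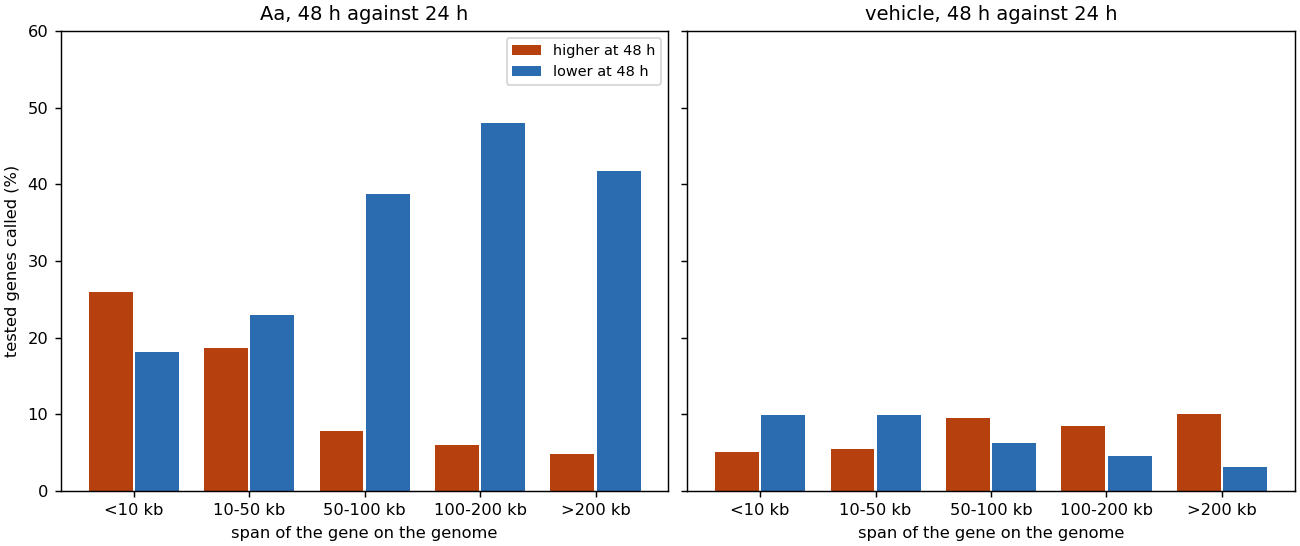
Share of tested genes called higher or lower at 48 h in 5 classes of gene span on the genome, for Aa cells and vehicle cells. In Aa cells falls increase from 18.1% under 10 kb to 48.0% from 100 to 200 kb; in vehicle cells they decrease from 9.91% to 3.11% over 200 kb.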

How the data were processed

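Per the submitters' processing notes the authors used GCRMA, which corrects background, normalises between arrays and summarises probe sets, and the values are the deposited log2 values. Neither its version nor the arrays it was run over together is named in the labels. Of 54675 probe sets 62 were controls, and 41091 of the others named 1 gene, 1801 several and 11721 none in the platform annotation. Each of 19775 genes took its brightest probe set over 12 arrays, and the 11184 genes over log2 4 on at least 3 arrays were tested. limma 3.58.1 in R 4.3.3 fitted the 4 group means with the replicate number as a block (6 residual and 2.72 prior degrees of freedom), with Benjamini-Hochberg adjustment. The median standard error was 0.113 for a time change and 0.16 for their difference, and the number of arrays limits this precision. The numbers paired the samples: deviations from group means correlated at 0.279 to 0.577 for all 18 same-numbered pairs. The 36 others lay at -0.371 to -0.0286. Centring each group on its mean pushes these below 0 once same-numbered pairs are positive, so they add no separate support. In a fold, dim arrays (under log2 4) of the lower group were raised to log2 4, and the fold is given as a lower bound. Scripts were tested on simulated data. The 38 gene lists, the spans and the promoter windows (250 bases before to 50 after the start, RefSeq, GRCh38.p14) are descriptions with no set test. Named genes were the 8 largest rises and falls with all Aa arrays over log2 4, the 4 largest bounds each way, up to 4 called members a list, the 5 largest differences each way, and 8 fixed genes, 1 of which is not reported here. JUND, KLF6, CCL2, MAFG, the endothelial genes, DCN, RGS5 and the PDGFR and COL markers were named after their values were seen. Members and lists were chosen with earlier results of these data known.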

Additional observations from a re-analysis of the deposited data

Results flagged for a closer look

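The time change of 4314 genes differed between Aa and vehicle cells by limma's test of the difference itself. Among the genes named, the 5 largest differences each way of genes over log2 4 on all 12 arrays, and genes called in opposite directions in the 2 treatments, are given here as Aa change minus vehicle change (log2). Positive values were 4.58 for SLN, 3.97 for FOS, 3.86 for SOX9, 3.58 for LINC00973, 3.44 for PLAT, 2.90 for HBEGF, 2.17 for GINS4, 1.33 for MKI67, 1.06 for NOP16, 1.03 for SF3B4, 0.98 for VARS1, 0.92 for NSDHL, 0.86 for COL1A1, 0.83 for PSMC4 and 0.75 for HARS1. The value for COL1A1 turned negative with the median over its probe sets, and only 2 of the 4 probe sets of MKI67 ran the same way in Aa cells. Negative values were -3.11 for TMEM37, -3.07 for INHBE, -2.92 for STEAP2, -2.91 for GPC6, -2.81 for SIM1, -2.40 for SLC7A11, -2.05 for SLC4A4, -1.45 for CDK7, -1.29 for PER3, -1.20 for AFF1, -1.20 for POLR1D and -0.98 for OCLN.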

How the results depend on the processing

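For the 161 named genes, 3547 of the repeat values for the change in Aa cells kept their direction and side of the threshold, 114 lost the call, 2 gained it and 24 turned; for the difference these were 3351, 147, 13 and 15. Without the replicate block 3261 genes were called in Aa cells, 71 in vehicle cells and 2179 in the difference (1079 up and 2182 down; 31 and 40; 761 and 1418). Scaled to the spiked controls 7896 were called in Aa cells and 4070 in vehicle cells (368 up and 7528 down; 124 and 3946), with 762 positive differences. With the 6 vehicle arrays alone 567 fell in vehicle cells; the difference has no value in fits of 1 treatment. Leaving out 1 array gave 3818 to 4928 calls in Aa cells (1369 to 1794 up, 2412 to 3142 down), 463 to 1816 in vehicle cells (196 to 839 up, 250 to 977 down) and 3421 to 4178 in the difference (1335 to 1620 positive, 2020 to 2612 negative), the vehicle lows coming without replicate 2 at 24 h (463, 250) and replicate 1 at 48 h (196). The difference in RNA quality was 0.0787 to 0.224 in Aa cells and -0.0369 to 0.055 in vehicle cells, negative without replicate 3 at 24 h (-0.0172) or replicate 2 at 48 h (-0.0369). Changes in Aa cells turned under the spiked controls for CDKN1A (-0.30), COL1A1 (-0.10), FAU (-0.22), HARS1 (-0.12), HSPB8 (-0.14), HSPH1 (-0.02), NARS1 (-0.06), RPL27A (-0.15), RPL30 (-0.28), SYNPO (-0.05), TGFA (-0.09) and ZFAS1 (-0.23). With the median over probe sets they turned for COL1A1 (-0.10), HNRNPA2B1 (0.48), MKI67 (-0.11) and RUBCN (0.01), and the difference turned for COL1A1 (-0.35), HNRNPA2B1 (0.51) and RUBCN (0.02). GAPDH came to 0.00 with equal medians and after quantile normalisation. HAVCR1 came to 0.07 and 0.04 there, and to 0.00 to 0.02 without single Aa arrays; its difference came to -0.15 under the spiked controls and ranged from -0.04 to 0.03 without single arrays. The difference also turned for KIF15 after quantile normalisation (0.02), for MSMO1 (-0.09) and RPL30 (-0.08) under the spiked controls, for MSMO1 without replicate 3 of Aa cells at 24 h (-0.03, the range without single arrays being -0.03 to 0.11), and for ZFAS1 (0.05 with equal medians, 0.04 after quantile normalisation, 0.00 without replicate 1 of vehicle cells at 48 h). The causes were not tested. Values under log2 4 are background, so small differences there carry no order.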

Other observations

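The counts below were chosen after the values were seen, and describe genes outside the lists. A total of 31 genes lay under log2 4 on all 24 h Aa arrays and over it on all 48 h ones, and 46 went the other way, a description of genes picked by that cut. In vehicle cells 8 and 7 did. Of 333 tested long noncoding RNAs, 22.2% rose and 13.2% fell in Aa cells, against 15.7% and 29.3% of 10696 protein-coding genes. With a log2 size of at least 1, 10.2% of the noncoding and 2.32% of the coding genes rose. Of all genes tested, 29 passed the filter through Aa arrays at 48 h alone and so had to be higher there. Their part in these shares was not tested. The noncoding genes were dimmer at 24 h (median 5.72 against 8.73) and spanned less (8.41 against 30.8 kb), and the part of either in these shares was not tested. Their median change was 0.05, and -0.43 when scaled to the spiked controls, where that of coding genes was -0.55.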
